A study of Macaca mulatta with 2 samples.

Results

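The genes described here encode the neuronal voltage-gated sodium channels, and they were followed in the prefrontal cortex of infant rhesus macaques. The 7 members were taken by symbol from the count table, as 4 alpha subunit genes (SCN1A, SCN2A, SCN3A and SCN8A) and 3 beta subunit genes (SCN2B, SCN3B and SCN4B), out of 33618 genes in all. The membership rule used no measured value, though the members were chosen with earlier results of these data known. The study asked what repeated sevoflurane anesthesia does to gene expression in the developing primate brain. The control library (CON 1) came from a macaque without a treatment named for it. The sevoflurane library (SEV 1) came from a macaque that inhaled about 2.5 to 3% sevoflurane for several hours on postnatal days 7, 14 and 28 by the labels. The study's methods give later days for the repeat exposures and place tissue collection right after the last one. Both animals are labelled as 28 days old, and neither the labels nor the methods name a strain or a genetic change. How the control animal was handled before tissue collection is not given in the sources used here.

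Voltage-gated sodium channels open when a neuron depolarizes and carry the inward current of the action potential. Each channel is 1 large alpha subunit, which holds the pore and the voltage sensors, joined by smaller beta subunits that tune gating, bring channels to the membrane and act as cell adhesion molecules. In cortex, SCN1A is best known for the fast-spiking inhibitory neurons, SCN2A and SCN8A for the axon initial segment of excitatory neurons, and SCN3A for the fetal and newborn brain. During postnatal development SCN8A replaces SCN2A at many axon initial segments and nodes of Ranvier while SCN3A declines. Volatile anesthetics are known to reduce neuronal sodium currents, among many other targets. These statements are background and were not measured here.

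The study's methods name 3 animals per group, while the counts used here hold 1 library of each group. With 1 library in each group the data have no replicates, so every ratio below compares 2 libraries, carries no p-value and cannot be assigned to sevoflurane. Reads on genes numbered 16960880 in CON 1 and 9839105 in SEV 1. Levels are CPM, reads scaled to a common library size by the TMM method, and each ratio is SEV 1 over CON 1 on the log2 scale with a prior count of 2. The interval beside each ratio is the exact 95% Clopper-Pearson interval of the read split between the libraries, called the counting interval here, and it covers counting error only. The animals also differed in Y-linked genes, 7 of which held 3 reads in CON 1 and 4308 reads in SEV 1, and the sevoflurane group included a male by the study's methods. Exposure, animal and sex cannot be told apart. Since this is bulk tissue, fewer cells of a type and less RNA per cell cannot be told apart either.

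The sodium channel genes did not move as a block. SCN1A and SCN4B were higher in SEV 1 by more than 1.5-fold, and on the TMM scale SCN2A, SCN3A and SCN3B were modestly lower and SCN8A and SCN2B level within counting error. When scaled to neuronal marker reads (given at the end), SCN2A (-0.02) and SCN3B (0.03) were level. SCN3A (0.20), SCN8A (0.27) and SCN2B (0.34) were higher, so the calls of these 5 members depend on the scale. That scale moved the median over all tested genes to 0.32. Level and higher on it are thus relative to the neuronal markers and not to the typical gene. All 7 members passed the filter of 1 CPM in either library, which 18050 genes of the table passed. At a 2-fold threshold with a counting interval excluding equal expression, 0 members were higher, beside 7.56% of all tested genes, and 0 were lower, beside 5.47%. At 1.5-fold, 2 of 7 were higher (14.4% of all tested genes) and 0 were lower (11.9%). With the counting interval alone, 2 were higher (28.4%) and 3 were lower (28.1%). The median log2 ratio of the members was -0.05, beside -0.0048 over all tested genes, so the members as a group sat close to the middle of the transcriptome.

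SCN1A encodes the pore of the Nav1.1 channel, whose loss of function causes epilepsy of early childhood. It had 2893 reads in CON 1 and 2608 in SEV 1, or 172 CPM (exact 95% Poisson interval 166 to 179) and 263 CPM (253 to 273). Its level was thus 1.53-fold higher in SEV 1, with a log2 ratio of 0.61 (0.53 to 0.69), above 84.2% of all tested genes. On the TMM scale SCN1A was the only one of the 4 alpha subunit members with a higher level beyond counting error. SCN3A and SCN8A were also above the markers on the neuronal marker scale, but below the median over all tested genes there (0.32).

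SCN2A encodes Nav1.2, the main channel of the immature axon initial segment. It had 403 reads in CON 1 and 188 in SEV 1, or 24.0 CPM (21.7 to 26.4) and 18.9 CPM (16.3 to 21.8). The level was 1.27-fold lower in SEV 1, with a log2 ratio of -0.34 (-0.60 to -0.09), and the Poisson intervals of the 2 levels overlapped slightly. The control library was thinned to the depth of SEV 1 in a single random draw, which left 223 SCN2A reads. In that draw the point stayed lower and the interval included equal expression (-0.27, interval -0.56 to 0.02). Thinning removes reads and so widens the interval, and the draw also moved the point toward equal expression. A single draw does not separate these, and thinning cannot show that the difference was absent. On the neuronal marker scale SCN2A was level with the markers (-0.02, interval -0.27 to 0.24). The SCN2A interval thus excluded equal expression by a small margin on the TMM scale at full depth. It did not in the thinned draw or on the neuronal marker scale. The small read number left SCN2A with the widest interval among the alpha subunit members. Whether that number reflects the tissue or reads missed in counting cannot be told, since the counting program and annotation are not given.

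SCN3A encodes Nav1.3, a channel of the developing brain. It still had 4069 reads in CON 1 and 2204 in SEV 1 at this age, or 242 CPM (235 to 250) and 222 CPM (213 to 231). The log2 ratio was -0.13 (-0.20 to -0.05), a 1.09-fold lower level that became a higher one (0.20) with neuronal marker reads as the library size. SCN8A encodes Nav1.6, the channel of mature initial segments and nodes. It had 2160 and 1233 reads, or 129 CPM (123 to 134) in CON 1 and 124 CPM (117 to 131) in SEV 1. Its log2 ratio of -0.05 had a counting interval from -0.15 to 0.05, so it was level within counting error on the TMM scale. On the neuronal marker scale SCN8A was higher (0.27, interval 0.17 to 0.38). The points of SCN3A and SCN8A on that scale lay below the median over all tested genes (0.32).

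**Figure D1:**
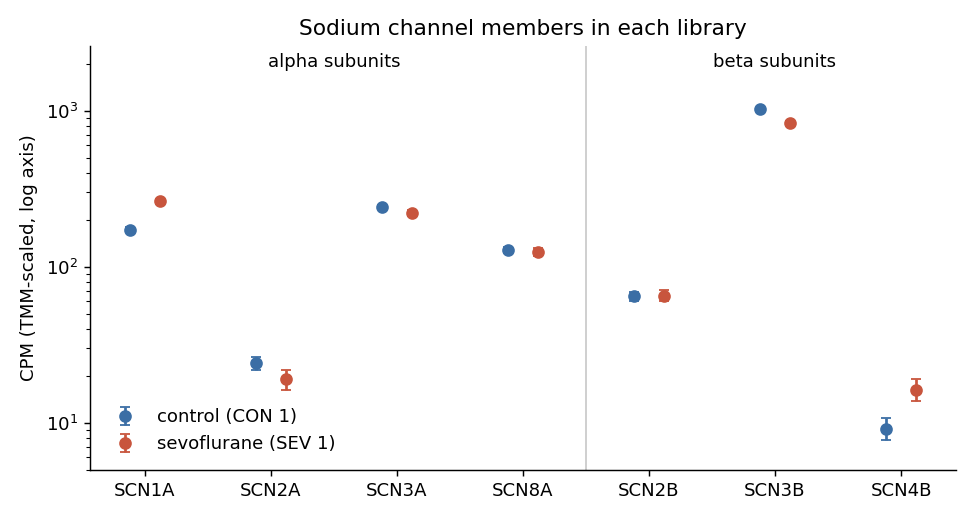
Level of each member in CPM after TMM scaling, on a log axis, in the control library (blue) and the sevoflurane library (red), with exact 95% Poisson intervals that cover counting error only. SCN1A (172 and 263 CPM) and SCN4B (9.16 and 16.2 CPM) are separated upward in SEV 1, while the intervals of SCN8A and SCN2B overlap on this scale. Levels of different genes are not comparable here, because reads also depend on transcript length.

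Ratios of one channel gene to another within a library need no scaling between libraries. Reads also depend on transcript length, which no table used here gives, so such a ratio is read only for how it changes between libraries. The ratio of SCN2A to SCN8A reads, the pair that exchanges places at the axon during development, was 0.187 (exact 95% interval 0.167 to 0.208) in CON 1 and 0.152 (0.130 to 0.178) in SEV 1. The change was a factor of 0.817 (exact conditional interval 0.674 to 0.988), so the balance of reads lay slightly further toward SCN8A in SEV 1. The interval came close to 1, and it included 1 (0.697 to 1.07) in the single random draw of the thinned control library. The ratio of SCN3A to SCN2A, both early channels, was 10.1 in CON 1 and 11.7 in SEV 1, and the change of 1.16 had an interval of 0.966 to 1.40 that included 1. The ratio of SCN1A to SCN2A went from 7.18 (6.47 to 7.99) to 13.9 (11.96 to 16.2), a change by a factor of 1.93 (1.61 to 2.33). SCN1A also gained on SCN3A by a factor of 1.66 (1.54 to 1.79) and on SCN8A by 1.58 (1.45 to 1.73). Across all 21 pairs of members, the change interval excluded 1 for 15 and included 1 for 6. The latter were SCN1A with SCN4B, SCN2A with SCN3A, SCN2A with SCN3B, SCN3A with SCN8A, SCN3A with SCN2B, and SCN8A with SCN2B. These pairs reuse the same 7 genes, and no share over pairs of other genes was computed. By the counting interval alone 28.4% of all tested genes were higher and 28.1% lower, but shares of single genes are no background for pairs. Whether the count of pairs is particular to the members was not tested.

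As shares of the reads on the 4 alpha subunit genes, SCN1A took 30.4% (29.4 to 31.3) of 9525 reads in CON 1 and 41.8% (40.6 to 43.1) of 6233 in SEV 1. SCN3A took 42.7% and 35.4%, SCN8A 22.7% and 19.8%, and SCN2A 4.23% and 3.02%. The alpha subunit genes summed to 567 CPM in CON 1 and 628 CPM in SEV 1 (log2 ratio 0.15, interval 0.10 to 0.19). Without SCN1A the sums were 395 and 365 CPM (-0.11, interval -0.17 to -0.05), so the higher alpha subunit total rested on SCN1A.

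**Figure D2:**
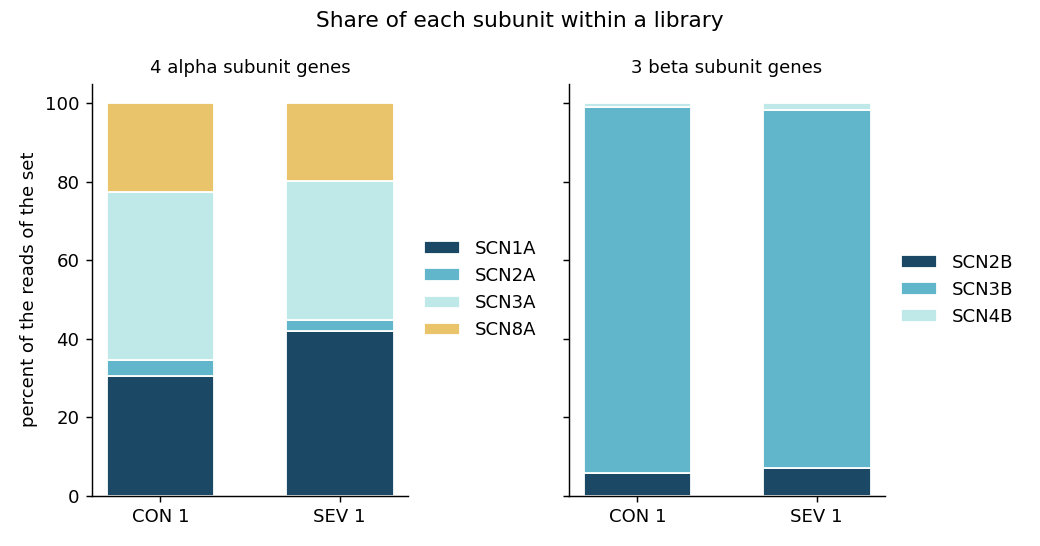
Percent of the reads of each set taken by each gene in CON 1 and SEV 1, for the 4 alpha subunit members (left) and for the 3 beta subunit members (right). SCN1A grows from 30.4% to 41.8% of alpha subunit reads, and SCN4B from 0.831% to 1.76% of beta subunit reads. Shares are of reads and not of molecules, since transcript length is not taken into account.

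Among the beta subunits, SCN3B was lower on the TMM scale but level on the neuronal marker scale, SCN2B was level on the TMM scale but higher on the neuronal marker scale, and SCN4B was higher on both. SCN3B, a noncovalently bound subunit abundant in the immature brain, had 17306 reads in CON 1 and 8317 in SEV 1, or 1030 CPM (1015 to 1045) and 837 CPM (820 to 856). The level was 1.23-fold lower in SEV 1 (log2 ratio -0.30, interval -0.34 to -0.26), whereas on the neuronal marker scale it was level (0.03, interval -0.01 to 0.06). SCN2B, a subunit joined to the alpha subunit by a disulfide bond, had 1083 and 647 reads, or 64.4 CPM (60.7 to 68.4) and 65.2 CPM (60.2 to 70.4). Its log2 ratio of 0.02 (-0.13 to 0.16) was level within counting error on the TMM scale. On the neuronal marker scale SCN2B was higher (0.34, interval 0.20 to 0.48), close to the median over all tested genes there (0.32).

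SCN4B, also disulfide-linked and known for its part in the resurgent sodium current of fast-firing neurons, showed the largest ratio among the 7 members. It had 154 reads in CON 1 and 161 in SEV 1, although SEV 1 was the shallower library. The levels were 9.16 CPM (7.77 to 10.7) and 16.2 CPM (13.8 to 18.9), which do not overlap. This is 1.77-fold higher, with a log2 ratio of 0.81 (0.50 to 1.15), above 89.1% of all tested genes. The interval reached past 2-fold at its upper end. SCN2B and SCN4B, which are direct neighbours in the RefSeq gene order, thus did not move together, and the ratio of SCN2B to SCN4B reads fell from 7.03 to 4.02, a change by 0.571 (0.446 to 0.733). The 3 beta subunit members together had 1103 CPM in CON 1 and 919 CPM in SEV 1 (log2 ratio -0.26, interval -0.30 to -0.23), a sum set by SCN3B, which took 93.3% and 91.1% of their reads.

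Sodium channel genes outside the members are given for 6 genes, of which 3 were tested. They are not the whole family, so no count or median is drawn from them. SCN9A, a channel of sensory and sympathetic neurons, had 256 and 57 reads, or 15.2 and 5.74 CPM (log2 ratio -1.39, interval -1.85 to -0.99). SCN7A, an atypical channel that senses sodium in glia-like cells and some neurons, had 187 and 28 reads, or 11.1 and 2.82 CPM (-1.93, interval -2.61 to -1.40). Both lay below the ratios of all 7 members. NALCN, the sodium leak channel that sets resting excitability, had 3545 and 1986 reads and was level within counting error (-0.08, interval -0.16 to 0.0026). The skeletal muscle gene SCN4A had 0 and 6 reads, the sensory neuron gene SCN10A 7 and 4, and SCN11A was listed at 0 in both libraries. These 3 genes were below the filter, and no ratio is given for them.

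**Figure D3:**
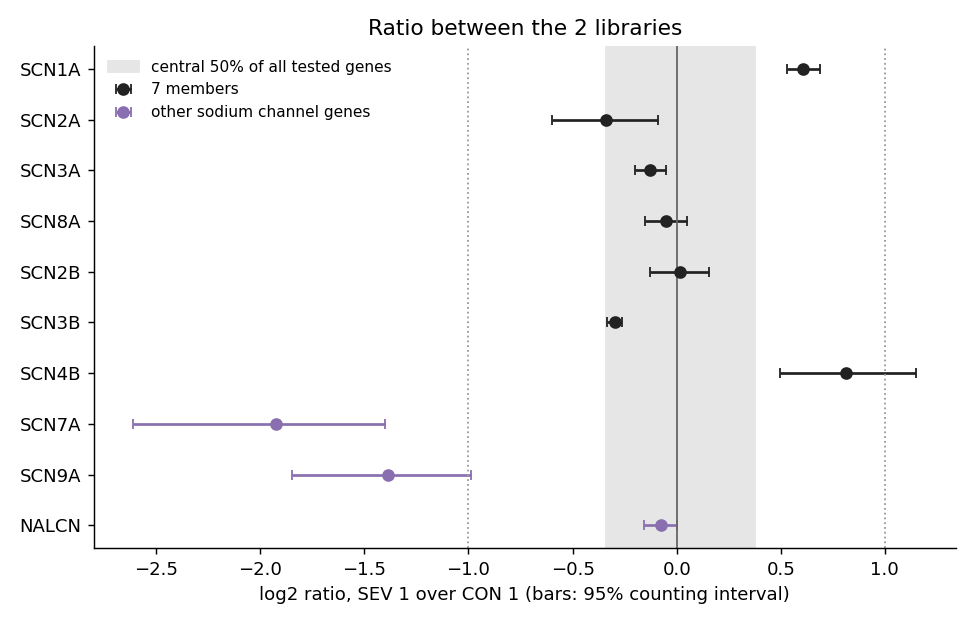
Log2 ratio of SEV 1 over CON 1 on the TMM scale for the 7 members (black) and 3 other tested sodium channel genes (violet), with 95% counting intervals. The grey band holds the central 50% of all tested genes (-0.34 to 0.37) and dotted lines mark 2-fold. SCN1A and SCN4B are the members to the right of the band, and SCN7A and SCN9A have points beyond 2-fold.

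In the RefSeq gene order of the macaque, the alpha subunit members other than SCN8A lie with SCN9A and SCN7A on 1 chromosome in the order SCN3A, SCN2A, CSRNP3, GALNT3, TTC21B, SCN1A, SCN9A and SCN7A, leaving out unnamed loci. The ratios changed sign along this row. SCN3A (-0.13 on the TMM scale, 0.20 on the neuronal marker scale) and SCN2A (-0.34) stood beside CSRNP3 (-0.27, interval -0.33 to -0.22), and SCN1A (0.61) stood between TTC21B (0.05, interval -0.10 to 0.21) and SCN9A (-1.39). No single shift covered the cluster.

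**Figure D4:**
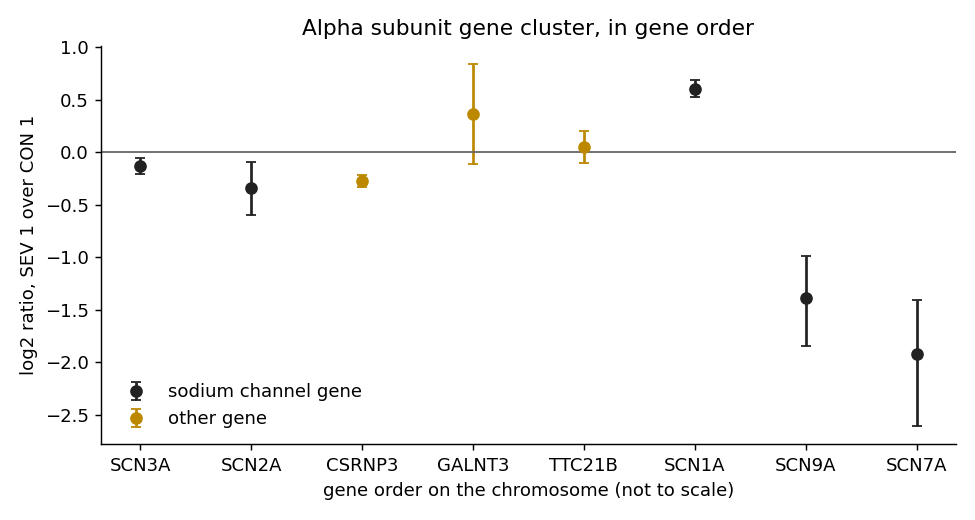
Log2 ratio of SEV 1 over CON 1 for the tested named genes of the alpha subunit cluster, placed in RefSeq gene order and not to scale, with 95% counting intervals. Black points are sodium channel genes and brown points the genes between them. SCN1A (0.61) is followed by SCN9A (-1.39) and SCN7A (-1.93).

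How reads shared between similar genes were counted is not given in the sources used here. The alpha subunit genes are close paralogs, so their counts are uncertain wherever a read fits more than one of them. In the RefSeq table the spans of SCN1A, SCN2A, SCN8A and SCN9A also overlap other loci, and whether counting used strand is not given. LOC708045, inside the span of SCN9A, had 30 and 34 reads, and the loci inside SCN1A and SCN2A are not in the count table.

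Sodium channels are held at the axon initial segment and nodes by ankyrin and spectrin scaffolds, next to adhesion molecules and potassium channels. Of 18 such genes, 17 were tested, 4 were higher and 8 lower by the counting interval (28.4% and 28.1% of all tested genes), and 0 passed 2-fold in either direction (7.56% and 5.47%), with a median log2 ratio of -0.0036. The initial segment spectrin gene SPTBN4 had 3897 and 3815 reads (232 and 384 CPM, log2 ratio 0.73, interval 0.66 to 0.79). Its ratio was above 87.2% of all tested genes. The axonal potassium channel gene KCNA2 was at 0.28, and the adhesion genes CNTN1 (-0.81), CNTN2 (-0.51) and L1CAM (-0.29) were the lowest of the list. ANK2, at 14 and 16 reads, had an interval from -0.18 to 2.10. ANK3, which encodes the ankyrin that anchors sodium channels at the initial segment, was listed at 0 in both libraries, so the anchor itself could not be compared.

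Of 16 genes for channel partners and regulators, 7 were higher and 7 lower by the counting interval (28.4% and 28.1% of all tested genes), with 0 beyond 2-fold (7.56% and 5.47%) and a median of -0.04. FGF11, one of the intracellular fibroblast growth factors that bind the channel tail, had 307 reads in each library (18.3 and 30.9 CPM, log2 ratio 0.75, interval 0.53 to 0.99). PRRT2, a synaptic protein that restrains sodium channels, had 3196 and 2838 reads (0.59, interval 0.51 to 0.66). NEDD4, a ubiquitin ligase that removes channels from the membrane, was at 0.34 (0.03 to 0.65). Its paralog NEDD4L, with 7784 and 3619 reads, was lower (-0.35, interval -0.40 to -0.29). The lowest were the calmodulin gene CALM2 (-0.61), MAP1B (-0.46), which is known to bring Nav1.6 to the surface, and BACE1 (-0.43), a protease that cuts beta subunits. CALM2 shares its protein with CALM3, and counts split among such copies are uncertain.

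The 2 libraries also differed in markers of the cells that carry these channels. Of 8 pan-neuronal markers, 0 were higher and 7 lower by the counting interval. Over all tested genes the shares were 28.4% and 28.1%, also for the counts of markers that follow. The ratios ran from -0.75 for TUBB3 to 0.02 for SNAP25, with summed levels of 7962 CPM in CON 1 and 6358 CPM in SEV 1. RBFOX3, the gene of the neuronal NeuN antigen, was listed with the splicing regulators and was higher (0.83, interval 0.75 to 0.91). The direction thus depends on the neuronal genes chosen. Among 7 inhibitory neuron markers, PVALB, the marker of fast-spiking cells, had 68 and 221 reads (4.05 and 22.3 CPM, log2 ratio 2.42, interval 2.06 to 2.87), while the other six ranged from -0.35 (SST) to 0.03 (VIP). The list summed to 499 and 440 CPM. PVALB thus moved in the direction of SCN1A and SCN4B, and the pan-inhibitory genes GAD2 (-0.30) and SLC32A1 (-0.34) did not. Of 6 excitatory neuron markers, 3 were higher and 3 lower, from -2.69 (NEUROD6) to 1.73 (SLC17A6), with sums of 1541 and 1539 CPM. The part of these markers in the channel ratios was not tested.

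Among other cells, all 7 oligodendrocyte markers were lower (sums 4074 and 2004 CPM, median -1.12), as were 4 of 4 precursor markers (393 and 271 CPM, median -0.36) and 5 of 6 astrocyte markers (6082 and 4199 CPM, median -0.57). Of 6 microglia markers 3 were higher and 1 lower (221 and 238 CPM, median 0.25), and of 5 endothelial and blood markers 1 was higher and 1 lower (152 and 196 CPM, median 0.13). No marker of any list was at 0 in either library. CNTN2, lower above, is also made by oligodendrocytes, and the part of the glial markers in these ratios was not tested.

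**Figure D5:**
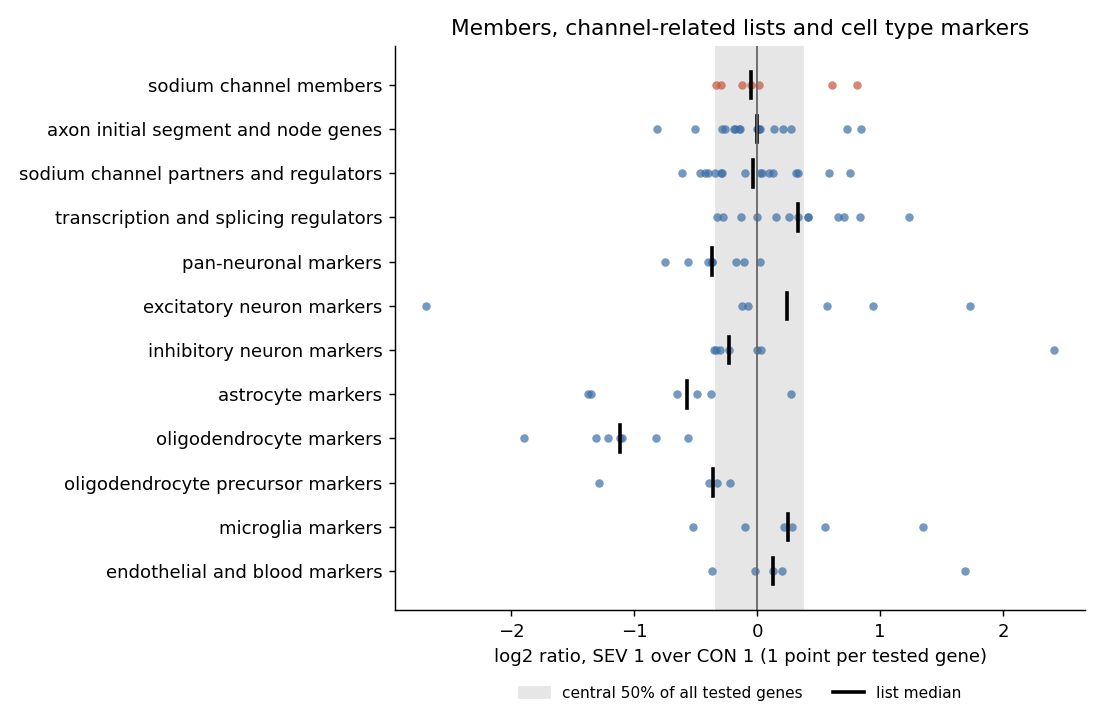
Log2 ratio of SEV 1 over CON 1 for each tested gene (1 point per gene) of the sodium channel members (red) and of each other list (blue), with the list median as a black bar and the central 50% of all tested genes as a grey band. The members spread from -0.34 to 0.81 around a median of -0.05, and the oligodendrocyte markers lie lowest at a median of -1.12.

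Because 7 of the 8 listed pan-neuronal markers were lower, the members were also set against the sum of the 8. RBFOX3, which was higher, is not among these markers. The 8 markers summed to 133800 reads in CON 1 and 63141 in SEV 1. MAP2 alone held 58204 and 26597 of these reads, so the scale leans on this gene more than on the other markers. With these sums as library sizes the median over all tested genes moved to 0.32. On that scale SCN1A was at 0.93 (0.86 to 1.01) and SCN4B at 1.13 (0.82 to 1.48), the members furthest above that median. SCN2A at -0.02 (-0.27 to 0.24) and SCN3B at 0.03 (-0.01 to 0.06) were level with the neuronal markers, and SCN3A (0.20), SCN8A (0.27) and SCN2B (0.34) were above them. A common scale moves every gene alike, so the order of the 7 members stays as it was.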

How the data were processed

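The deposited values are raw read counts, whole numbers for each gene that the authors did not normalize, in 1 table with a column for each of the 2 libraries. Per the labels, HISAT2 2.0.4 was among the tools used. The counting program, genome build and annotation are not given in the sources used here, so no coordinates are printed. TMM factors came from edgeR 4.0.16 in R 4.3.3 on the genes reaching 1 CPM in CON 1 or SEV 1, and were 0.991 for CON 1 and 1.01 for SEV 1. Log2 ratios used a prior count of 2. Intervals were computed with scipy 1.17.1 under Python 3.11.15 (numpy 2.4.6, pandas 2.3.3, plots with matplotlib 3.10.9). Their computation was checked on simulated counts that held Poisson counting error only. That check does not cover variation between animals or libraries.

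A gene was counted as 2-fold apart when its ratio reached 2-fold in either direction and equal expression lay outside its 95% interval. No test was run, since 1 library per group leaves edgeR's quasi-likelihood test no residual degrees of freedom. Named are all members, the other sodium channel genes in the table and, of each further list, genes among its 3 highest and 3 lowest ratios. Other genes, namely those between the channel genes on the chromosome, ANK3, NEDD4L and LOC708045, were chosen after their values were seen. Some items that these lists cover are not reported here and are left out of the lists. The members and lists were chosen with earlier results of these data known. Gene order and overlaps come from the RefSeq table of assembly MMU8v2.0 (telomere to telomere), in which 7 of 7 members were found by symbol. No sequences were used here. The alternatives were other scalings (library totals, DESeq2 1.42.0 size factors, upper quartile), a smaller prior count (0.5), a looser (1 read) or stricter (5 CPM) filter, a thinned control library, thresholds of 1.5-fold or none, a 99.9% interval and, added after the data were seen, the pan-neuronal marker scale.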

Additional observations from a re-analysis of the deposited data

How the results depend on the processing

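Under the other scalings, the prior count of 0.5 and the thinned control library, each member stayed within its counting interval, with SCN1A from 0.61 to 0.64, SCN2A from -0.34 to -0.27, SCN3A from -0.13 to -0.10, SCN8A from -0.06 to -0.02, SCN2B from 0.02 to 0.04, SCN3B from -0.31 to -0.27 and SCN4B from 0.81 to 0.85. With pan-neuronal marker reads as library size, SCN3A (0.20) and SCN3B (0.026) changed sign, SCN1A was at 0.93, SCN2A at -0.017, SCN8A at 0.27 and SCN2B at 0.34, as this scale moves all genes upward. Thinning the control, in a single random draw, put the SCN2A to SCN8A change at 0.864. The interval of that change, and that of SCN2A itself, then included no difference. In that draw the read numbers fell and the points moved as well, so the part of depth alone cannot be told. The number of members called was 2 higher at 1.5-fold, and 2 higher and 3 lower with no fold threshold. Over all genes, 606 were higher and 474 lower with the filter of 5 CPM, which tests fewer genes, 2604 and 2141 at 1.5-fold, and 5132 and 5065 with no fold threshold. The medians of the other sodium channel genes and of 1 further list were not run, since these lists are not complete here. No paired analysis was possible because CON and SEV have a single library each, and no library could be left out. The depth limits SCN2A and SCN4B most, whose lowest counts were 188 and 154 reads.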

Other observations

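The genes that control sodium channel transcription and splicing leaned upward in the sevoflurane library. Of 13 tested, 8 were higher and 2 lower by the counting interval, beside 28.4% and 28.1% of all tested genes, and the median log2 ratio was 0.33. SRRM4, a splicing factor that drives neuronal microexons, had 406 and 566 reads (log2 ratio 1.23, interval 1.05 to 1.43). RBFOX3, the gene of the NeuN antigen, had 2478 and 2611 reads (0.83) and RBFOX1 432 and 418 (0.71, interval 0.51 to 0.91). REST, the repressor first described on a sodium channel gene, had 348 and 164 reads and was lower (-0.32, interval -0.60 to -0.05). PTBP2 was also lower (-0.13, interval -0.25 to -0.02), and MBNL1, at 17 and 8 reads, had an interval from -1.75 to 0.96. The list mixes drivers and repressors, so its median gives no direction of control. Gene-level counts do not show which exons of the channel genes were used.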
